A study of Homo sapiens with 4 samples.

Results

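The genes HNF4A, HNF4G, CDX1, CDX2, GATA4, GATA6, FOXA3 and PDX1 encode transcription factors of the gut, liver and pancreas lineages. These 8 genes, out of 19689 protein-coding genes of GENCODE release 44, were chosen by family and gut-lineage role, with the C4-2BER-only promoter peaks of GATA4 and CDX2 already known from earlier results of these data. Every peak in the gene body or within 100 kb on either side was then taken from the lists of both cell lines. PDX1 and CDX2 are neighbours, so their windows overlap, and the 8 windows merge into 7 regions that held 141 of 149676 peaks (C4-2B) and 134 of 118728 peaks (C4-2BER).

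ATAC-seq was used to map accessible chromatin: the transposase Tn5 cuts and tags DNA where it is not tightly packed. C4-2B is a castration-resistant human prostate adenocarcinoma line. C4-2BER is a derivative grown under lasting enzalutamide, an antiandrogen drug, and is labelled as neuroendocrine-like. Both were grown in RPMI with fetal bovine serum. Both lines had 2 libraries, which the authors merged before calling peaks, so each line has 1 peak list and the differences given here have no replicate check and no test. In a bulk culture, fewer cells with an open site and a site that is less open in each cell cannot be told apart.

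Endoderm-derived tissues share a small set of lineage factors that act in combination. GATA4, GATA6 and the FOXA proteins bind early and open chromatin. HNF4A and HNF4G are nuclear receptors that maintain hepatocyte and enterocyte programmes, CDX1 and CDX2 are homeodomain proteins of the intestine, and PDX1 is the homeodomain factor of the pancreas and duodenum. The adult prostate also arises from endoderm but is kept in a luminal state mainly by androgen signalling, with FOXA1 among the cofactors. A transcription start site (TSS) that is open is not necessarily transcribed, and RNA was not analysed here.

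The start sites of 4 of the 8 genes, GATA4, CDX2, HNF4A and FOXA3, were covered by a peak in C4-2BER and not in C4-2B, and the reverse was found for 0 genes. Over all protein-coding genes, 4.99% had a TSS covered in C4-2BER only and 1.64% in C4-2B only. GATA6, PDX1 and an upstream TSS of HNF4G were covered in both lists with high ranks, and CDX1 was covered in neither. When TSSs within 500 bp of each other were joined, the 8 genes had 13 TSS groups, of which 5 were covered in C4-2BER only, 0 in C4-2B only, 3 in both and 5 in neither. Since the genes were selected with part of this pattern known, and the rule of a covered TSS was added after the peaks had been seen, these counts are a description.

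The methods print the shift given to reads before peak calling as 100, in bp and with no sign, and its direction could not be settled here, so the edges and summits of peaks may be displaced. By the wider rule of a peak within 2000 bp of any TSS, GATA4 and CDX2 had a promoter peak in C4-2BER only, 0 of the 8 genes in C4-2B only, 5 in both lists and CDX1 in neither. Within 1000 bp, HNF4A joined GATA4 and CDX2, and 3 genes had one in C4-2BER only and 4 in both. The corresponding shares of all genes were 3.39%, 2.83% and, for both lists, 77.7%. HNF4A and FOXA3 moved between the rules. At HNF4A the C4-2B peak lay downstream of the TSS, and at FOXA3 the peaks that both lists shared belonged to the divergent gene SYMPK as well. Values below are the reads over the summit of a peak, recovered from the deposited fold enrichment and p-value, and the rank percentile, which is the place of the peak by −log10 p within its own list, where 100 is the strongest. C4-2B was the deeper list, at 30.2 M reads recovered against 25.2 M, 1.20 times as many.

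**Figure D1:**
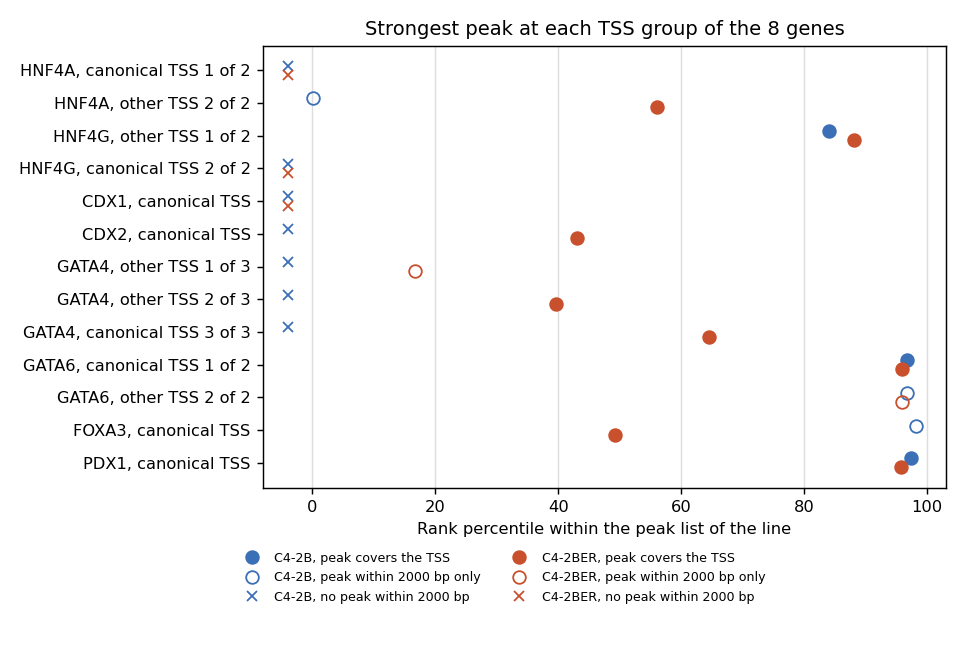
Rank percentile (x axis) of the peak at each of the 13 TSS groups of the 8 genes, in C4-2B (blue) and C4-2BER (red). Filled points are peaks that cover the TSS, open points are the strongest peak within 2000 bp where the list has none that covers it, and crosses mark a list with no peak within 2000 bp. GATA4, CDX2, FOXA3 and the second HNF4A group have a filled point in C4-2BER only, at percentiles from 39.7 to 64.4, whereas GATA6, PDX1 and the upstream HNF4G group are at percentiles from 84.0 to 97.3 in C4-2B.

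GATA4 (ENSG00000136574, chr8:11676959-11760002, plus strand) had the most C4-2BER-only promoter peaks of the 8 genes. It encodes a zinc-finger factor of the foregut, liver bud and heart. The C4-2B list had no peak within 2000 bp of any of its 3 TSS groups, with the nearest peak 9081 bp from the canonical group. The C4-2BER list had 5 promoter peaks there. The strongest, at 11703993 to 11704304, covered the canonical TSS group with 38 reads over a local background of 5.44 reads and stood at percentile 64.4, above the middle of its list. A peak at 11703020 to 11703588 held 24 reads (percentile 34.2), and the alternative TSS at 11692626 was covered by a peak with 18 reads (percentile 39.7). The remaining promoter peaks held 15 reads, upstream of the canonical TSS, and 12 reads, 448 bp upstream of the first TSS group, and ranked at percentiles 1.21 and 16.7. The peak at the canonical TSS group thus ranked highest of the 5, and the first TSS group had a peak nearby but none over it.

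All 5 GATA4 promoter peaks, scaled to the depth of C4-2B, would have been strong enough for the C4-2B list. The 38 reads at the canonical TSS scale to 45.5 reads at the depth of C4-2B, where 15 reads would have reached the lowest deposited −log10 p at the same relative background. Inside the gene, 32.3 kb downstream of the canonical TSS, a further C4-2BER-only peak at 11736242 to 11736721 held 46 reads and ranked at percentile 78.7, higher than any GATA4 promoter peak. It lies in an intron. The strongest C4-2B-only peak of the GATA4 window, at 11738214 to 11738681 in the same gene, held 21 reads (percentile 39.5) and was the only one of 10 C4-2B-only peaks there with a −log10 q of at least 10.

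At distal sites of the GATA4 window that both lists shared, reads were level or lower in C4-2BER. An upstream site 52.9 kb from the canonical TSS held 121 reads in C4-2B against 62 in C4-2BER, a depth-scaled ratio of 0.613 (95% interval 0.444 to 0.839, counting error only). An intronic site 12.8 kb downstream of that TSS held 52 reads in C4-2B against 12 in C4-2BER, a ratio of 0.276 (95% interval 0.134 to 0.524). Over the 11 shared distal pairs of the window the median ratio was 0.691, with an interval below 1 for 4 pairs and above 1 for 0 pairs. The median over shared distal pairs of the whole lists was 0.828, and how many of those had such an interval was not counted. At the upstream and the intronic site just given, the local background was lower in C4-2BER too, at 0.651 and 0.532 times that of C4-2B relative to the floor of each list, and its part in the ratios was not tested. The only shared pair of the window with an interval above 1 lay in a promoter of FDFT1, with 20 reads in C4-2B against 50 in C4-2BER, a ratio of 2.99 (95% interval 1.75 to 5.30). The top peak of the window in either list was at the promoter of the neighbouring DNA repair gene NEIL2.

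CDX2 (ENSG00000165556, chr13:27960918-27969315, minus strand), the homeodomain factor that specifies intestinal epithelium, had a C4-2BER-only peak over its single TSS. The peak, at 27969143 to 27969422, held 41 reads over a background of 11.6 reads and ranked at percentile 43.0. The nearest C4-2B peak ended 2700 bp from the TSS, inside the gene. Of the promoter sequence, the 250 bases before the start are shown here because the C4-2BER-only peak overlaps part of them, in the direction of the gene, from RefSeq (GRCh38.p14), at chr13:27969316-27969565. Capitals mark matches to the motifs listed further on, here CAATAAA (CDX), TTATCT (the reverse of the GATA motif) and GTAAACA (the reverse of the forkhead motif). By the edges of the peak, only the forkhead match lies inside it, and the CDX and GATA matches lie upstream of it.

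CDX2 upstream: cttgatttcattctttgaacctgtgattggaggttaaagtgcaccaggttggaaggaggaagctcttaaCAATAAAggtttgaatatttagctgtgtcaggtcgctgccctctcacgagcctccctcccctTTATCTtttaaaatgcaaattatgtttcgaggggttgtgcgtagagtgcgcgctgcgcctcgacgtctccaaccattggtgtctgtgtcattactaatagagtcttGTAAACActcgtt

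This promoter stands next to a domain that was open in both lines. Within the CDX2 gene and up to 16.3 kb downstream of its TSS, 6 shared pairs of peaks held more reads in C4-2B. The strongest held 158 reads in C4-2B against 85 in C4-2BER, a depth-scaled ratio of 0.644 (95% interval 0.489 to 0.843). The others had ratios from 0.539 to 0.669, each with an interval below 1. Shared distal pairs of the whole lists had a median ratio of 0.828, and how many had such an interval was not counted. The local background at the CDX2 pairs was high in both lists, with 9.79 times the genome-wide floor (C4-2B) and 7.32 times (C4-2BER) at the strongest pair. Relative to the floor of each list, it was lower in C4-2BER at all 6 pairs, at 0.661 to 0.747 times that of C4-2B. Its part in the ratios was not tested. At the C4-2B background of 21.9 reads, a summit would need 37 reads to enter the C4-2B list, and the CDX2 promoter peak of C4-2BER scales to 49.1 reads at that depth. A weaker opening of the CDX2 TSS in C4-2B would therefore not have been listed.

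HNF4A (ENSG00000101076, chr20:44355699-44432845, plus strand) has an upstream, canonical promoter and an internal promoter further into the gene, which give rise to protein isoforms with different amino termini. Neither list had a peak within 2000 bp of the canonical TSS group, the nearest being 14849 bp away in C4-2B and 14912 bp away in C4-2BER. The internal group, from which 10 protein-coding transcripts start against 4 at the canonical one, was covered in C4-2BER by a peak at 44401047 to 44401524 with 25 reads over a background of 2.90, at percentile 56.1. In C4-2B the only peak within 2000 bp lay at 44402671 to 44402959, downstream of these TSSs, and held 9 reads, at percentile 0.12. The C4-2BER peak scales to 29.9 reads at the depth of C4-2B, where 9 reads were enough at the background of that neighbouring C4-2B peak. The C4-2B peak scales to 7.52 reads at the depth of C4-2BER, under the 9 reads needed there, so a site of that strength would not have been listed in C4-2BER.

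Both HNF4A promoters are shown before their starts, since only the second lay under a peak. The sequences are the 250 bases upstream of the TSS from RefSeq (GRCh38.p14), plus strand, at chr20:44355449-44355698 for the canonical promoter, with a GATA motif (AGATAA) in capitals, and at chr20:44400989-44401238 for the internal promoter, with a homeobox motif (TAATTA) in capitals.

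HNF4A canonical, upstream: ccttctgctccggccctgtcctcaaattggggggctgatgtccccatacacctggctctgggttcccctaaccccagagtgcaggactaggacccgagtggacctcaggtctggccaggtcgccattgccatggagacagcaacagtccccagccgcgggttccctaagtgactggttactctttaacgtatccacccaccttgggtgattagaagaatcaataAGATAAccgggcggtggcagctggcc
HNF4A internal, upstream: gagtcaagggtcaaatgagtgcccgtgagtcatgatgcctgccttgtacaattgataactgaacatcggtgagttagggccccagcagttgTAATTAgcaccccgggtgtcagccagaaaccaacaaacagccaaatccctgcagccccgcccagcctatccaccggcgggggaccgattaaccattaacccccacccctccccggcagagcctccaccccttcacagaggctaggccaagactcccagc

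The wider HNF4A window had more peaks in C4-2B, which is the longer list. It held 24 C4-2B peaks covering 11310 bp and 18 C4-2BER peaks covering 8276 bp, with 11 C4-2B-only and 5 C4-2BER-only peaks. Medians over all protein-coding genes were 20 C4-2B and 16 C4-2BER peaks, with 6 C4-2B-only and 3 C4-2BER-only. Over all peaks, the parts with no overlap in the other list were 37.7% (C4-2B) and 20.8% (C4-2BER). The lowest ratio at a shared site lay 53.2 kb upstream of the canonical TSS, between genes, where C4-2B had 98 reads (percentile 94.6) against 15 reads in C4-2BER (percentile 36.7). The depth-scaled ratio was 0.183 (95% interval 0.0987 to 0.317), the lowest of the 94 distinct shared pairs in these windows. The background moved with it and was 0.466 times as high in C4-2BER, relative to the floor of each list, and its part in the result was not tested. An intronic site 33 kb downstream of the canonical TSS differed little, with 87 reads in C4-2B against 84 in C4-2BER.

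The C4-2B-only peak with the highest −log10 q of this window, 106 kb downstream of the canonical TSS and beyond the end of the gene, held 22 reads at 44461459 to 44461816 (percentile 44). It is shown, as an example of the C4-2B-only peaks that are the more numerous here, as 201 bases centred on the summit, from the plus strand of hg38 at chr20:44461568-44461768, with a CDX motif (CAATAAA) in capitals. A C4-2BER peak with 8 reads has its summit 316 bp away without overlapping it, so the site counts as shared when a gap of up to 500 bp is allowed.

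HNF4A distal, C4-2B-only: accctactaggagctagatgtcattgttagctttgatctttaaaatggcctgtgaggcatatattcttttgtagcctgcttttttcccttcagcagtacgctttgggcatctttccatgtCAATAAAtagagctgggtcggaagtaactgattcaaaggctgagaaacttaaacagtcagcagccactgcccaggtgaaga

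HNF4G (ENSG00000164749, chr8:75407914-75566834, plus strand), the paralogue of HNF4A that is active in gut epithelium, was open at its upstream TSS in both lines. That peak held 85 reads in C4-2B (percentile 84.0) against 80 in C4-2BER (percentile 88.0), a depth-scaled ratio of 1.13 (95% interval 0.819 to 1.55). The canonical TSS group, at 75539869 to 75539968, had its nearest peaks 56202 bp (C4-2B) and 56182 bp (C4-2BER) away. The window holds no other protein-coding gene and few peaks, 11 (C4-2B) and 10 (C4-2BER), and 8 in each list were shared. The ratio interval held 1 in all 8 pairs, so no shared site of HNF4G differed beyond counting error. The line-only peaks with a −log10 q of at least 10 were 1 in each list, with 33 reads in C4-2B inside the gene (percentile 65.2) and 28 reads in C4-2BER over a start of the long noncoding RNA CASC9 (percentile 64.8).

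CDX1 (ENSG00000113722, chr5:150166778-150184558, plus strand), the second intestinal caudal factor, had no promoter peak in either line. The nearest peaks ended 4412 bp (C4-2B) and 4318 bp (C4-2BER) from its single TSS. They formed a strong shared site 5.0 kb upstream of it, with 112 reads in C4-2B (percentile 91.8) against 117 in C4-2BER (percentile 95.3). This site lies between genes and cannot be assigned to CDX1 or a neighbour from these data. Line-only peaks of the window numbered 8 (C4-2B) and 3 (C4-2BER), and for 0 of them the −log10 q reached 10. Among shared promoter peaks of the neighbours, 1 at PDGFRB and 1 at CAMK2A had ratios of 0.556 and 0.370, with intervals below 1, and another at PDGFRB had a ratio of 1.69 (95% interval 0.870 to 3.35).

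GATA6 (ENSG00000141448, chr18:22169589-22202528, plus strand), the paralogue of GATA4 in endoderm, was open at its canonical TSS in both lines. The peak was broad and strong, with 169 reads in C4-2B (percentile 96.6) against 149 in C4-2BER (percentile 95.9), a depth-scaled ratio of 1.05 (95% interval 0.841 to 1.32). It also covers the start of the antisense RNA GATA6-AS1. A smaller peak about 1.1 kb upstream held 57 and 63 reads. The promoter of GATA6 thus gives a shared counterpart to the C4-2BER-only promoter of GATA4. Its 250 bases before the TSS, from RefSeq (GRCh38.p14), plus strand, chr18:22169339-22169588, held no match to any of the 5 motifs.

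GATA6 upstream: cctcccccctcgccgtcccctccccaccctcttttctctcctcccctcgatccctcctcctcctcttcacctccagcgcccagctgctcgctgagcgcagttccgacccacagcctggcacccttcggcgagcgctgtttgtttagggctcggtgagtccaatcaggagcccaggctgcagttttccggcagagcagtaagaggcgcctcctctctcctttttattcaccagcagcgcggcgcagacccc

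Away from the GATA6 promoter, several shared sites held fewer reads in C4-2BER. Of the 11 shared distal pairs, 4 had ratio intervals below 1 and 1 above 1, and the median ratio was 0.665. For shared distal pairs of the whole lists the median was 0.828, and their intervals were not counted. The lowest ratios of the GATA6 pairs were at a site 56.0 kb upstream, with 60 reads in C4-2B against 16 in C4-2BER, and at a site 93.8 kb downstream, with 64 and 18 reads. The local background there was 0.819 and 0.635 times as high in C4-2BER, relative to the floor of each list. Its part in these ratios was not tested. The site with an interval above 1 lay 33 kb upstream, with 10 reads in C4-2B (percentile 3.17) against 21 in C4-2BER (percentile 56.6). The window had 3 C4-2B-only and 6 C4-2BER-only peaks, and in 2 of each the −log10 q was 10 or more. In C4-2BER these lay 84.8 kb upstream of the canonical TSS, with 27 reads (percentile 65.6), and in an intron 24.0 kb downstream of it, with 23 reads. In C4-2B they lay 106 kb downstream, with 37 reads (percentile 66.1), and 26.1 kb upstream, with 30 reads (percentile 60.9).

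The strongest line-only site of each line at GATA6 is shown as 201 bases centred on the summit, plus strand of hg38, since they are the line-only sites with the highest −log10 q around a promoter open in both lines. The C4-2BER-only site is at chr18:22084663-22084863 and the C4-2B-only site at chr18:22275541-22275741, and capitals mark a match to the CDX motif in each.

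GATA6 distal, C4-2BER-only: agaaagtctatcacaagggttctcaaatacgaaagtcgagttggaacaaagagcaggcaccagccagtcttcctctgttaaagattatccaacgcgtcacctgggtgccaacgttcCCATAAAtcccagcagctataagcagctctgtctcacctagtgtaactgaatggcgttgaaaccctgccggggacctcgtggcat
GATA6 distal, C4-2B-only: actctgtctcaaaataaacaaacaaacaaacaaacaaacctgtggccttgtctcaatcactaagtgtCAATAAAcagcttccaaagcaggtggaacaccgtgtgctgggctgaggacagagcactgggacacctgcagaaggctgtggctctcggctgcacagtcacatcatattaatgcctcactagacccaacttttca

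FOXA3 (ENSG00000170608, chr19:45863989-45873797, plus strand), the forkhead factor of liver and gut, shares its promoter region with SYMPK, a gene for RNA 3′ end processing that runs the other way. A strong peak on the SYMPK side was present in both lists, with 147 reads in C4-2B (percentile 98.1) against 166 in C4-2BER (percentile 99.0). Neither covered a FOXA3 TSS, and the C4-2B peak ended 493 bp from the nearest one. The C4-2BER peak came closer, ending at 45863929 before that TSS at 45863989. Whether it covers that TSS therefore turns on a peak edge that may be displaced. A separate C4-2BER-only peak at 45864062 to 45864360 covered the canonical FOXA3 TSS with 47 reads over a background of 13.1 and ranked at percentile 49.2. It scales to 56.2 reads at the depth of C4-2B, where 20 reads were enough at the background of the neighbouring C4-2B peak. The part of this peak between the first exon of the upstream FOXA3 transcript and the canonical TSS is shown, 134 bases, plus strand, at chr19:45864192-45864325, with a CDX-type match (CTATAAA) in capitals. These letters also contain the sequence TATAAA of a TATA box, so the match cannot be read as a CDX site.

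FOXA3 upstream: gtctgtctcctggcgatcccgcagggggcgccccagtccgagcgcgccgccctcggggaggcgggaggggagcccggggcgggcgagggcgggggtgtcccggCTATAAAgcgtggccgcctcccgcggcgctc

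FOXA3 sits in the most gene-dense window, with 11 other protein-coding genes, and most of its sites held more reads in C4-2BER. Of its 16 shared pairs, 9 had a ratio interval above 1 and 0 below 1, and the median ratio was 1.33. These pairs include promoters of DMPK, SIX5, RSPH6A, IRF2BP1 and MYPOP, and the local background was 1.5 times as high in C4-2BER relative to the floor of each list. Higher ratios were thus found at neighbouring genes as well as at FOXA3, and the part of the background in it was not tested. The other windows had medians from 0.655 (CDX2) to 0.960 (HNF4G), beside 0.90 over 91168 shared pairs of the whole lists, 1.08 at promoters and 0.828 at distal sites. The share of whole-list pairs with an interval above or below 1 was not computed.

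PDX1 (ENSG00000139515, chr13:27920000-27926313, plus strand), the homeodomain factor of pancreas and duodenum, was open in both lines. Its promoter peak held 149 reads in C4-2B (percentile 97.3) against 121 in C4-2BER (percentile 95.7), with a depth-scaled ratio of 0.972 (95% interval 0.758 to 1.24). Its promoter was the only one of the 3 shared and TSS-covering promoters with a ratio below 1, and its interval held 1. Upstream of PDX1, between genes, line-only sites of both lines lay next to each other. A C4-2B-only peak 82.6 kb upstream held 26 reads (percentile 47.2), and a C4-2BER-only peak 79.5 kb upstream held 21 reads (percentile 54.6). The latter is shown as 201 bases centred on its summit, plus strand of hg38, at chr13:27840426-27840626, because it was the only C4-2BER-only peak of the merged PDX1 and CDX2 window whose −log10 q reached 10. Capitals mark forkhead motifs (TGTTTTC and its reverse GAAAACA) and CDX-type matches (CTATAAA). As at FOXA3, the latter contain TATAAA and cannot be read as CDX sites.

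PDX1 distal, C4-2BER-only: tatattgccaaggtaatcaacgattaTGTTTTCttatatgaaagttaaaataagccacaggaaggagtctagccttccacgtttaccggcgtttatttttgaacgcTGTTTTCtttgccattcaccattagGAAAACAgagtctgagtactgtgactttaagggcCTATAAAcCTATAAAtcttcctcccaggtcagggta

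**Figure D2:**
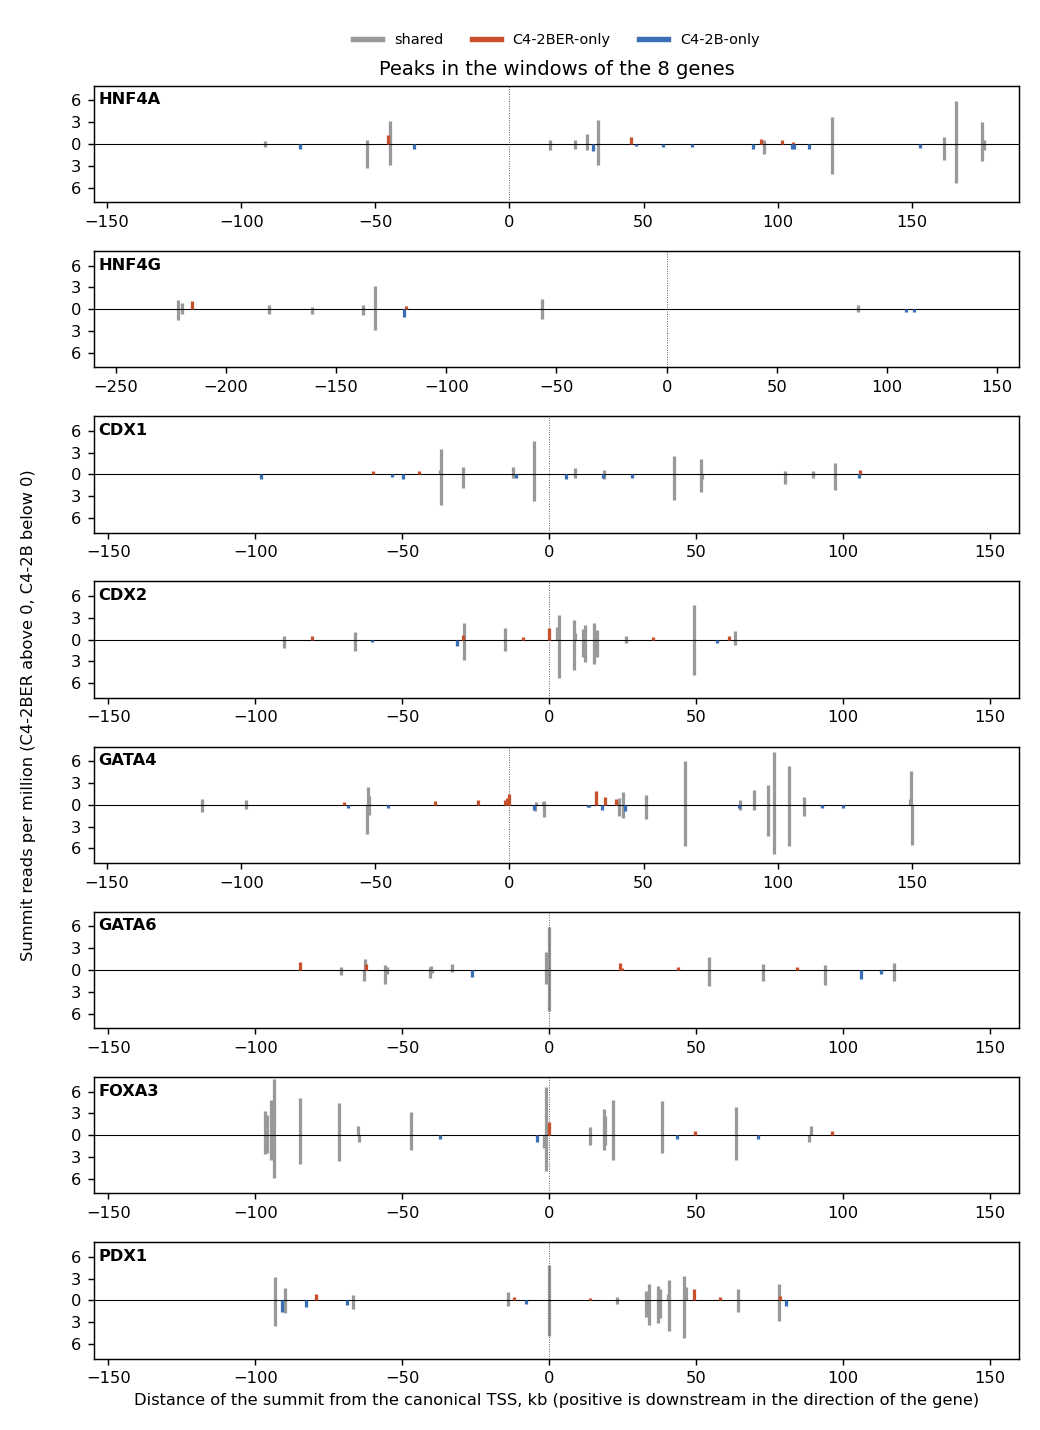
Peaks in the 8 windows by distance of the summit from the canonical TSS in kb (x axis), with the summit reads divided by the recovered depth of the list in M reads (y axis) drawn upwards for C4-2BER and downwards for C4-2B. Shared peaks are grey and line-only peaks coloured. The red line at 0 kb in the CDX2, GATA4 and FOXA3 panels is the C4-2BER-only TSS peak, and the tall grey lines at 0 kb at GATA6 and PDX1 are promoters open in both lines; the PDX1 and CDX2 panels show many of the same peaks.

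Taking the 7 merged regions together, 45 of 141 C4-2B peaks (31.9%, 95% Wilson interval 24.8 to 40.0, counting error only) were C4-2B-only, and 35 of 134 C4-2BER peaks (26.1%, 19.4 to 34.1) were C4-2BER-only. These shares lay closer together than the 37.7% and 20.8% of the whole lists, but each interval holds the whole-list share of its line. The 35 also include the promoter peaks of GATA4 and CDX2 that were known when the genes were chosen. These shares are therefore a description. Line-only peaks were weaker than shared ones in both lists, with a median of 18 against 54 reads in C4-2B and 15 against 33 in C4-2BER. Promoters held 11 of the 35 C4-2BER-only peaks and 4 of the 45 C4-2B-only peaks. Of the 11, those at the starts of GATA4 (5), CDX2, HNF4A and FOXA3 make up 8, and the others lay at FITM2, NANOS2 and NOVA2. The 4 C4-2B-only promoter peaks lay at HNF4A, CSF1R, PDGFRB and FDFT1. In the whole lists, 12.5% of C4-2BER-only and 6.57% of C4-2B-only peaks were in promoters.

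Limits set by depth were computed on each line-only peak. With reads scaled to the other list and the same relative background, all 35 C4-2BER-only peaks and 43 of 45 C4-2B-only peaks would have reached the lowest −log10 p of the other list. The exceptions were the HNF4A peak with 9 reads and a GATA4 intron peak with 8 reads. At the background of the nearest peak in the other list, which can lie far away, the counts were 32 of 35 and 36 of 45. The 3 C4-2BER-only peaks under that limit were the GATA6 intron peak with 23 reads, another beside it with 8 reads and a CDX2 window peak with 10 reads. By window, CDX2 and GATA6 each had 3 more C4-2BER-only than C4-2B-only peaks and PDX1 had 1 more, and the other 5 genes had fewer. Of all protein-coding genes, 13.2% had more C4-2BER-only peaks in a window drawn the same way, and the median gene had 3 C4-2BER-only and 6 C4-2B-only peaks. GATA4 had the highest number of C4-2BER-only peaks among the 8 genes, 9, at percentile 97.8 of all genes, but its C4-2B-only count of 10 was also high, at percentile 84.0, and the difference between the counts stood at percentile 72.2. Of the 9, 5 were its own promoter peaks, known when the gene was chosen, so this percentile is a description only. The CDX2 and PDX1 counts likewise include the CDX2 promoter peak, which was also known. Most C4-2BER-only peaks of these overlapping windows are the same intervals, so the CDX2 and PDX1 counts are not independent.

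**Figure D3:**
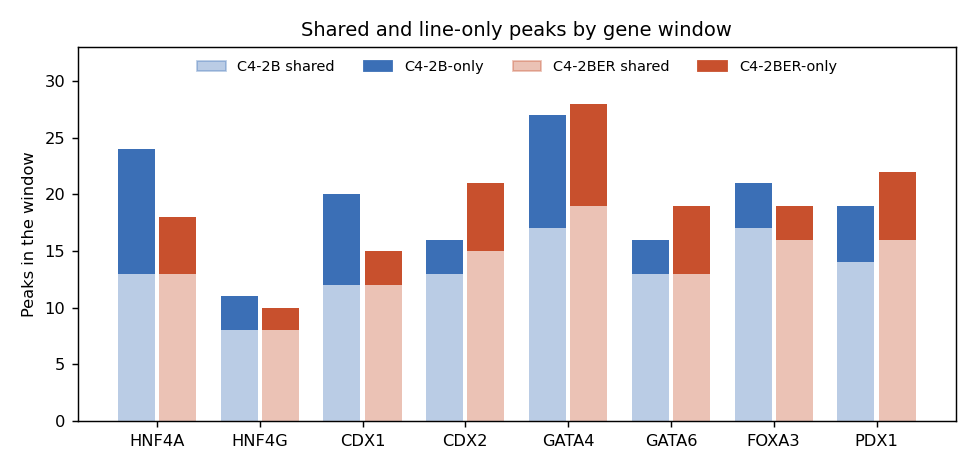
Number of peaks (y axis) in the window of each gene, in C4-2B (blue, left bar) and C4-2BER (red, right bar), split into shared (pale) and line-only (solid) peaks. HNF4A and CDX1 have more C4-2B-only peaks (11 and 8) than C4-2BER-only peaks (5 and 3), and CDX2 and GATA6 have fewer (3 against 6 in each).

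**Figure D4:**
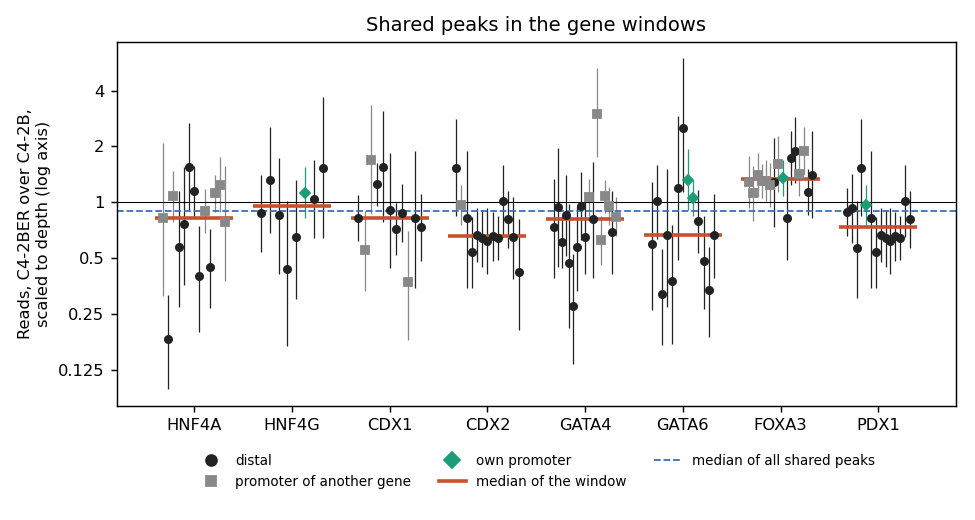
Depth-scaled ratio of summit reads, C4-2BER over C4-2B (y axis, log scale), for each shared pair of peaks in the window of each gene, with 95% intervals that cover counting error only. Red bars are window medians and the dashed line is the median of all shared pairs, 0.90. The FOXA3 window lies mostly above 1 with a median of 1.33, the own promoters of GATA6, HNF4G and PDX1 lie near 1, and the lowest point is the HNF4A site at 0.183.

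Other genes of the same lineages were examined for context, from lists written down with earlier results of these data known. Promoter peaks here are those within 2000 bp of any TSS. Of 23 further transcription factors of gut and endoderm, 19 had a promoter peak in both lists, 3 in C4-2BER only, 0 in C4-2B only and 1, CDX4, in neither. PTF1A, a pancreatic factor, was among the 3 of C4-2BER, with 21 reads at percentile 42.4. Among 16 gut epithelial genes, a promoter peak was found in both lists for 7, in C4-2BER only for 3, in C4-2B only for 0 and in neither for 6. The 3 gut epithelial genes of C4-2BER were VIL1, which encodes the microvillus protein villin, with 27 reads at percentile 51.8, the gut cadherin CDH17 with 16 reads at percentile 40.9, and the keratin KRT20 with 9 reads at percentile 4.82. Beside them, 3.39% of all genes had a promoter peak in C4-2BER only. By the rule of a covered TSS, 15 of the 23 factors were covered in both, 3 in C4-2BER only, 0 in C4-2B only and 5 in neither. For the 16 gut epithelial genes these counts were 3, 3, 0 and 10, and 4.99% of all genes were covered in C4-2BER only. The 6 with no promoter peak in either list were GUCY2C, SI, FABP1, FABP2, ALPI and SLC26A3, whereas APOA1 and CDHR5, also genes of absorptive cells, had one in both. Counting a list without a promoter peak as percentile 0, 6 of the 16 ranked higher in C4-2BER and 4 lower, with a median difference of 0. Among those with a peak in both lists, MUC2 (percentiles 80.3 and 47.3) and TFF3 (79.2 and 33.4) ranked lower in C4-2BER, and CEACAM5 (70.7 and 89.7) and GPA33 (41.0 and 63.9) ranked higher. The CEACAM5 values are from different sites, at 41711726 to 41712360 (C4-2B) and 41706685 to 41707234 (C4-2BER), and neither peak covers a TSS. Percentiles refer to lists of unequal length.

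The patterns of the genes were set beside those 23 factors by the distance between their pairs of promoter rank percentiles, over 2 lists. The nearest to CDX2 was PTF1A (distance 0.627 percentile points), which was also the nearest to HNF4A (13.7). PDX1 and GATA6 were both nearest to PROX1 (1.00 and 1.27), FOXA3 to ONECUT2 (1.14), HNF4G to EOMES (0.964), and CDX1 to CDX4, as both had no promoter peak. The cell type of the lines was read from the same lists. All 5 luminal markers, among them KLK3, KLK2 and TMPRSS2, had a promoter peak within 2000 bp in both. So did all 6 neuroendocrine markers, among them CHGA, SYP, ENO2, NCAM1 and INSM1, and by this rule presence did not separate the lines. By the rule of a covered TSS, the 5 luminal markers were again covered in both. Of the 6 neuroendocrine markers, 3 were covered in both, CHGA and INSM1 in C4-2BER only, 0 in C4-2B only and 1 in neither. Over all genes, 4.99% were covered in C4-2BER only. KLK3 was at percentile 80.9 (C4-2B) and 42.3 (C4-2BER), and NCAM1 at 43.8 and 77.6. At NCAM1 these peaks lay at different positions, 112961106 to 112961824 (C4-2B) and 112962970 to 112963468 (C4-2BER).

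Motifs of the factors themselves were then counted within 100 bp of the summits of distal peaks, those over 2000 bp from a protein-coding TSS, on either strand. The motif of the HNF4 receptors was taken as CAAAGTCCA. For factors of the GATA family it was AGATAA, for the caudal factors CDX1 and CDX2 it was CNATAAA, for forkhead factors TGTTTNC and for homeobox factors of the PDX1 type TAATTA. They do not tell members of a family apart, a match does not show binding, and CDX and homeobox motifs share letters with other homeodomain sites. The CDX motif also takes in CTATAAA, which contains TATAAA of a TATA box. In the table of 35116 RefSeq promoters of 300 bases, 0.384% held the HNF4 motif, 10.3% GATA, 9.73% CDX, 18.0% forkhead and 4.84% homeobox. Promoters of 4 of the 8 genes were in that table, as 5 entries.

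The HNF4 motif was the one most weighted towards C4-2BER. It was found at 167 of 21562 C4-2BER-only distal peaks of the whole list (0.775%, 95% Wilson interval 0.666 to 0.901) and at 159 of 52778 C4-2B-only distal peaks (0.301%, 0.258 to 0.352). Shared distal peaks of the C4-2BER list were at 0.35%. The C4-2BER-only share was 2.57 times the C4-2B-only share (95% interval 2.07 to 3.19), which became 1.71 with matches within 250 bp of the summit and 4.93 among line-only peaks with a −log10 q of at least 10. In the latter the shares were 1.45% (53 of 3663) and 0.293% (58 of 19779). In absolute terms the motif was rare in every class of peaks. The cause of the excess was not tested.

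The GATA motif was distributed the other way. It was at 10.2% of C4-2BER-only and 14.8% of C4-2B-only distal peaks, a ratio of 0.691 (95% interval 0.661 to 0.723). Beside those of GATA6, both lines had promoter peaks of GATA2 and GATA3, which recognise the same letters, with 188 and 79 reads (C4-2B) and 113 and 89 reads (C4-2BER). The forkhead motif was at 20.6% and 30.6%, a ratio of 0.671 (95% interval 0.652 to 0.691). The CDX motif was at 12.7% and 14.0%, a ratio of 0.905 that rose to 1.12 once the C4-2B-only share was standardised to the GC content of the C4-2BER-only peaks. The homeobox motif was at 4.48% and 4.0%, a ratio of 1.12 whose direction also depended on the setting.

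**Figure D5:**
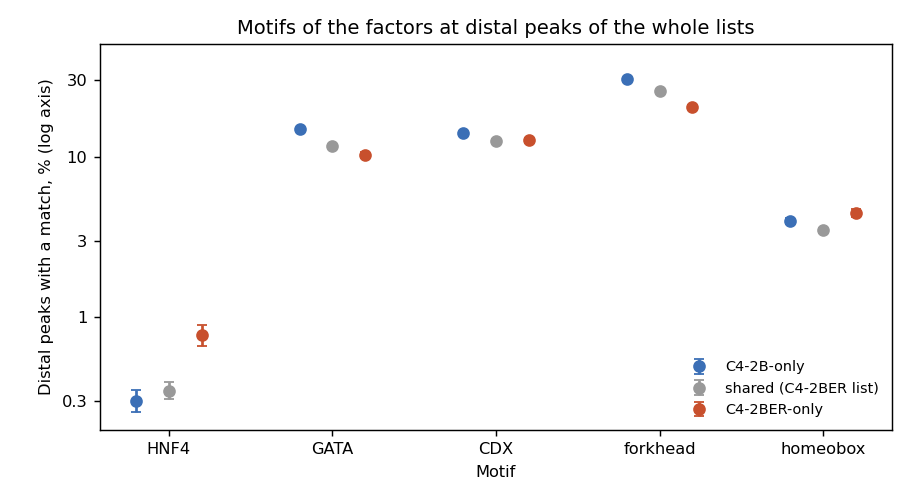
Share of distal peaks with a motif match within 100 bp of the summit, in percent on a log axis (y axis), for 5 motifs, in C4-2B-only peaks (blue), shared peaks of the C4-2BER list (grey) and C4-2BER-only peaks (red) of the whole lists, with 95% Wilson intervals. HNF4 is at 0.301% in C4-2B-only and 0.775% in C4-2BER-only peaks, GATA at 14.8% and 10.2%, and forkhead at 30.6% and 20.6%.

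Within the windows of the 8 genes the motif counts were too few to compare the lines. The HNF4 motif was at 0 of 24 C4-2BER-only distal peaks, which allows a share of up to 12.5%, and at 1 of 41 C4-2B-only distal peaks, an exonic site 28.1 kb downstream of the CDX1 TSS with 15 reads. GATA motifs were at 3 and 5 of these peaks, CDX motifs at 3 and 6, forkhead motifs at 4 and 11, and homeobox motifs at 1 and 2. The strong C4-2BER-only site inside GATA4 held none of the 5 motifs. Among the values that set the edge of the windows, the outermost C4-2BER peak inside the HNF4A window lay 269 bp from the edge with 15 reads, and the nearest one outside lay 7018 bp beyond it with 19 reads.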

How the data were processed

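ATAC-seq libraries of C4-2B and C4-2BER, 2 per line, were analysed from the authors' peak lists. According to the study's methods and the labels, reads were aligned to hg38 with Bowtie2, duplicates were removed, replicates were merged and macs2 called peaks with reads extended to 200 bp. The macs2 version was not given in the sources used here. The shift is printed as 100 with no minus sign, and summit positions and motif matches near summits depend on it. The deposited fold enrichment is the ratio of reads at the summit to those of its surroundings, both raised by 1. Each summit also has a −log10 p and a −log10 q in the deposited lists, as well as its offset in bp. No other column was used.

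Rows sharing an interval were counted once, by the summit of highest −log10 p. Whole reads and background were solved from fold and p-value. They were recovered for 100% of summits, with a largest error of 0.000259 in −log10 p, and the step was tested on simulated data. Background comes from 10000 bp around the summit or from the genome-wide floor of 2.24 (C4-2B) and 1.87 reads (C4-2BER). Depth assumes a genome of 2.7e+09 bp, and the depth ratio does not depend on it. The lowest summits held 8 and 7 reads, so weaker sites are not listed.

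Peaks were shared when they overlapped by 1 bp, and a pair for a ratio had to be each other's strongest overlap. Ratio intervals are exact binomial and, for motif shares, from the normal approximation on the log scale. Annotation was GENCODE release 44. The genes, gene lists and motifs were chosen with earlier results of these data known. All 8 genes were described, other genes were named where a promoter peak was in 1 list only or as the nearest pattern, and further genes were named after their values were seen. Some genes of the lists are not reported here. Scripts used Python 3.11.15, pandas 2.3.3, scipy 1.17.1 and pysam 0.24.0.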

Additional observations from a re-analysis of the deposited data

How the results depend on the processing

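The alternatives were stricter or shorter lists, other overlap, promoter and window rules, and other motif settings. The rule that a peak covers a TSS was chosen after seeing the data. No paired analysis was possible because each line has a single list made from both its replicates and none with a replicate left out. Scaling the C4-2B list to the depth of C4-2BER, with scaled reads rounded to whole reads, removed 258 of its peaks. All 9 counts and shares it was run for kept the same values, but this rests on the rounding. Unrounded, as in the limits above, the HNF4A promoter peak scales to 7.52 reads with 8 needed. The GATA4 intron peak scales to 6.69 reads with 7 needed. Without rounding both would leave the list, and HNF4A would have a promoter peak in C4-2BER only. With summits within 200 bp or a gap of up to 500 bp, counts of line-only peaks stayed within 1.5 times the reported ones. Where the setting does not itself give the cause of a change, the cause was not tested.

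The genes with a promoter peak in C4-2BER only rose from 2 to 3, and those in both lists went from 5 to 4, at a −log10 q of at least 5, with equal list lengths and with a promoter of 1000 bp. Of the 8 genes, 1 had a promoter peak in C4-2BER only with the top 50000 peaks of each list and 4 when a peak had to cover a TSS. Those with one in both lists were 3 with the canonical TSS alone and 3 when a peak had to cover a TSS. At a −log10 q of 5 or more, 23 peaks in the windows were C4-2BER-only. With a −log10 q of at least 10, by construction, 90 C4-2B and 68 C4-2BER peaks were left, 15 of them C4-2BER-only, and 58.9% of the C4-2B peaks were shared. With the C4-2B list cut to the length of the other, 22 peaks were C4-2B-only and 79.8% of the C4-2B peaks were shared. With the top 50000 peaks there were 52 C4-2B peaks, 11 of them C4-2B-only and 78.8% shared, and 54 C4-2BER peaks, 13 of them C4-2BER-only. A reciprocal overlap of 50% gave shared parts of 59.6% (C4-2B) and 62.7% (C4-2BER). Windows of 50 kb held 89 C4-2B peaks (29 C4-2B-only) and 88 C4-2BER peaks, and windows of 200 kb held 242 (84) and 216 (55 C4-2BER-only).

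Ratios of motif shares, C4-2BER-only over C4-2B-only, with matches within 250 bp were 1.71 (HNF4), 0.854 (GATA), 0.968 (CDX), 0.839 (forkhead) and 1.00 (homeobox, just under 1 and so reversed). Among peaks with a −log10 q of at least 10 they were 4.93, 0.479, 0.770, 0.513 and 0.947, with homeobox reversed. Standardised to GC deciles, they were 0.827 (GATA), 1.12 (CDX, reversed), 0.744 (forkhead) and 1.41 (homeobox). The HNF4 ratio stayed above 1, and the GATA and forkhead ratios below 1, under all 3 of these settings.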
